A study of Mus musculus with 8 samples.

Results

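The 36 genes described here are type I interferon response genes: genes switched on by interferon alpha and beta, together with the receptor chains and transcription factors that carry the signal. They were chosen by name from a list, and each of the 36 symbols matched 1 of 38026 genes in the deposited expression table. The table covers 8 RNA-seq libraries, each of mouse cells taken up by magnetic beads against CD11b, a surface protein of myeloid cells. Of these, 5 held microglia and macrophages of medulloblastoma, called TAMs (tumor-associated microglia/macrophages) below, from mice aged 68, 90, 61, 66 and 62 days after birth (replicates 1 to 5). In the other 3 the cells were normal microglia from cerebral cortex at 60 days. The defining microglia genes P2ry12 and Tmem119 were present in all 8 libraries, at 53.5 to 382 TPM in TAMs and 1164 to 2586 TPM in microglia. Both were lower in TAMs, P2ry12 by a log2 fold change of -3.25 and Tmem119 by one of -3.49 (limma, adjusted p = 0.00134 and 9.05e-05), and on rescaled TPM too. All mice are labelled C57BL/6, and tissue was digested with papain, depleted of myelin and extracted with Trizol in both groups. The alleles or transplant that gave rise to the tumors are not stated in the labels, nor whether the cortex came from mice without a tumor. Tumor, brain region and age differ together between the groups and cannot be told apart. The ages differ between the TAM libraries, so these came from different mice. Nothing says this of the microglia libraries, so p-values measure the spread between these samples, which for microglia may be technical.

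Type I interferons are made after a cell senses foreign or misplaced nucleic acid. They bind a receptor of 2 chains, encoded by Ifnar1 and Ifnar2, whose kinases activate STAT2. With IRF9 it forms part of a complex that binds the interferon-stimulated response element and turns on genes that block viral entry, translation and release. Several products of those genes, among them IRF7 and the nucleic acid sensors, feed back into the response. Microglia can both make and answer type I interferon, and a subset of microglia with high levels of these genes is known from injury, aging and disease of the brain.

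TAMs as a group carried more RNA of 11 of the 36 genes on TPM, most of them antiviral effectors and nucleic acid sensors, while the receptor chains passed the test only after rescaling. The levels were very unequal among the 5 TAM libraries. Bst2, Zbp1, Rsad2, Oas1a, Ifi204, Ifit2, Ifi27l2a, Oasl1, Oas3, Mx1 and Slfn2 rose, and none of the 36 fell (limma on log2(TPM + 1), adjusted p under 0.05 over 15262 tested genes). In 13 genes every TAM library was above every microglia library and in 0 below, where 7.97% and 49.7% of tested genes were. TPM is transcripts per 1000000, a level per transcript length. Over all tested genes 8.22% were higher and 56.4% lower. At an unadjusted p under 0.05, 13 of the 36 were higher and 0 lower. All genes that pass the adjusted threshold pass this one too, so the shares over all tested genes are at least 8.22% and 56.4%. The median log2 fold change was 0.89 over the 36 genes and -0.65 over all tested genes. In these bulk samples, more cells with the response and more RNA per cell cannot be told apart.

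Because most genes were listed lower in TAMs, each comparison was also made on rescaled TPM, in which the median ratio of each library to the mean of all libraries is set to 1. On that scale the median over all tested genes was -0.02, and 25.2% of them were higher and 24.1% lower. There 20 of the 36 genes rose and none fell, and their median was 1.59. The 11 genes above were all among the 20, with rescaled log2 fold changes from 1.89 for Slfn2 and 2.28 for Oas3 to 3.60 for Zbp1 and 3.64 for Ifi27l2a. Between these lay Mx1 (2.52), Oasl1 (2.69), Ifit2 (2.96), Oas1a (3.15), Rsad2 (3.18), Bst2 (3.18) and Ifi204 (3.33). The other 9 were Ifnar1, Ifnar2, Irf7, Ifih1, Ifit3, Isg15, Parp14, Rtp4 and Xaf1, and 16 genes were called on neither scale. In the authors' deposited table, whose p-values were adjusted here, 30 of the 36 genes were higher and 0 lower. Of the 27039 genes with a p-value 17.6% were higher and 16% lower. At an unadjusted p under 0.05 also 0 of the 36 were lower, where at least 16% of those 27039 genes were. The deposited log2 fold changes of the 36 ran from 0.41 for Ddx58 to 5.05 for Oas3. That table and the fits above rest on the same libraries.

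**Figure D1:**
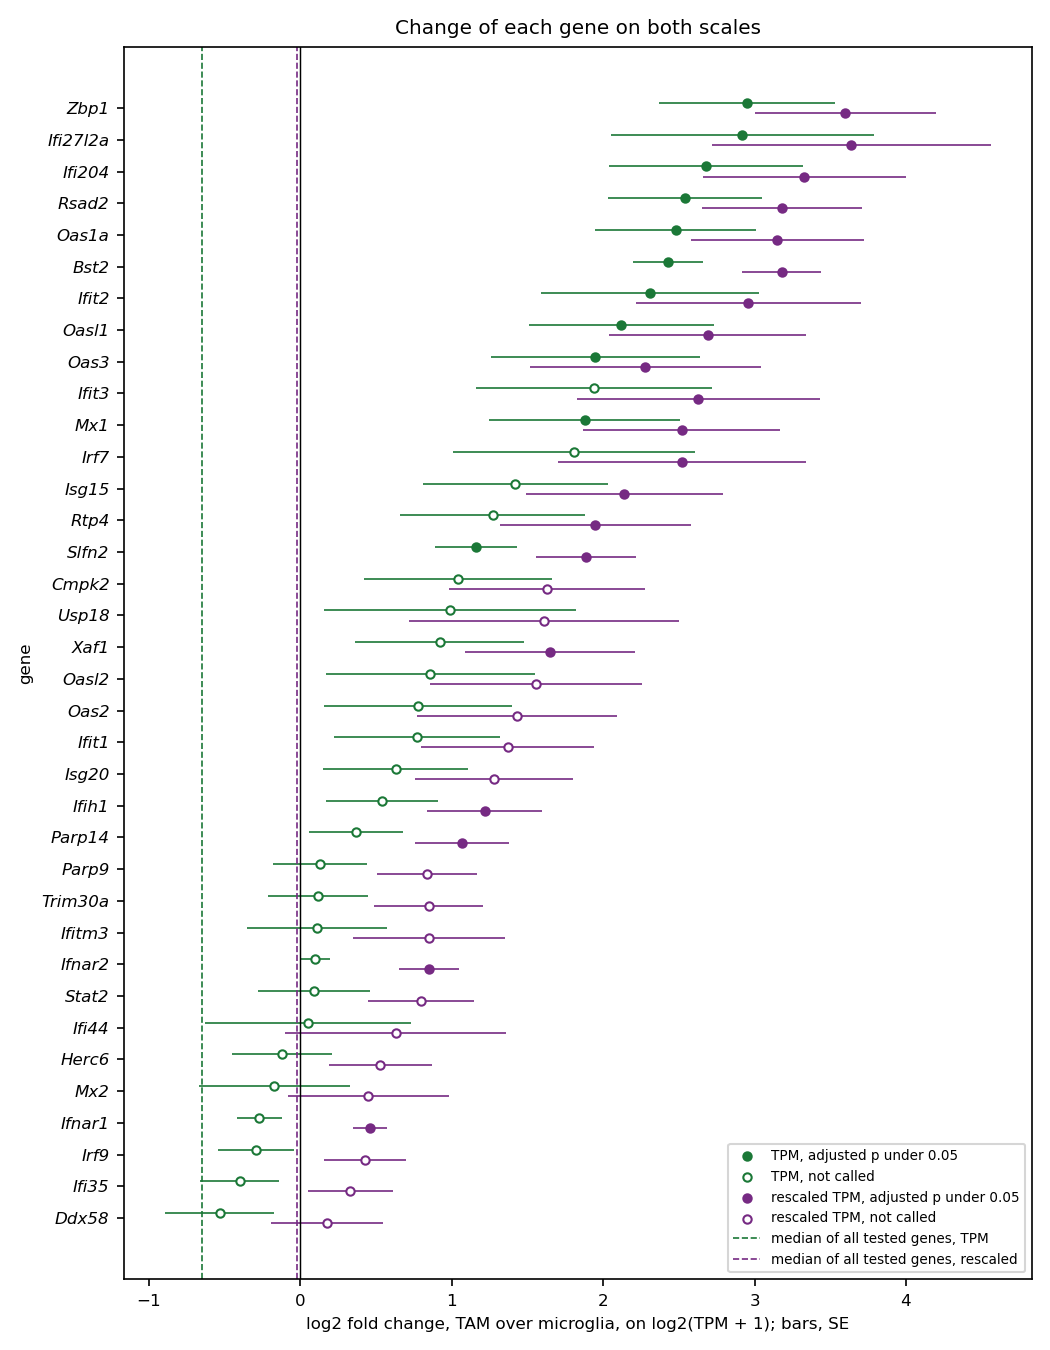
Log2 fold change of each of the 36 genes (TAM over microglia, on log2(TPM + 1)) with its SE as a bar, on TPM (green) and on rescaled TPM (purple). Filled points passed an adjusted p of 0.05: 11 genes on TPM and 20 on rescaled TPM, and dashed lines mark the medians of all tested genes at -0.65 and -0.02.

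The 36 genes had a wider spread among the TAM libraries than the tested genes as a whole. The highest TAM library was a median of 6.53 times the lowest over the 36 genes, against 1.89 times over all tested genes. In the 3 microglia libraries both medians were 1.4. TAM replicate 1 was the highest of the TAM libraries for 34 of the 36 genes, all but Ifnar1 and Ifnar2, while it was the highest for 6.88% of tested genes. TAM replicates 1, 4 and 5 were all above replicates 2 and 3 for 31 genes, against 11.3% of tested genes. The exceptions were Ifnar1, Ifnar2, Slfn2, Bst2 and Ifitm3. For 24 genes the order began with replicate 1, then 5, then 4, and for 7 genes with 1, then 4, then 5.

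TAM replicate 1 exceeded every microglia library for 35 of 36 genes on TPM, where 13% of tested genes did so. The counts were 29 in replicate 5 (20.2% of tested genes) and 27 in replicate 4 (14.1%). They were 15 in replicate 2 (16.2%) and 15 in replicate 3 (14.9%). Replicates 2 and 3 were below every microglia library for 13 and 15 of the genes, where 70.6% and 71.7% of tested genes were. On rescaled TPM the counts above every microglia library were 36, 29, 29, 36 and 35 for replicates 1 to 5, where 40.8%, 41.4%, 40.2%, 40.8% and 38.9% of tested genes were. The median ratio of a gene's TPM to its microglia mean was 5.85 in replicate 1, 1.04 in replicate 2, 0.903 in replicate 3, 2.38 in replicate 4 and 2.71 in replicate 5. On TPM, then, replicates 2 and 3 stood close to the microglia on this median and the other 3 above it.

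**Figure D2:**
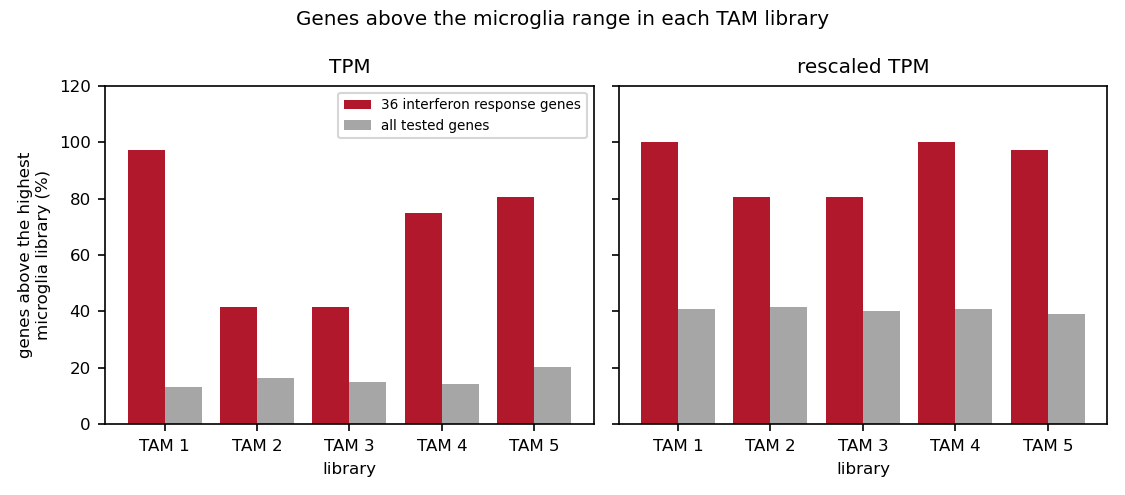
Percent of genes whose value in a TAM library lay above the highest of the 3 microglia libraries, for the 36 interferon response genes (red) and for all 15262 tested genes (grey), on TPM (left) and rescaled TPM (right). On TPM the red bars stand for 35, 15, 15, 27 and 29 of 36 genes in replicates 1 to 5.

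Some marker sums of other cells had the same order among the TAM libraries and some did not. Sums of 8 endothelial markers were 119, 39.4, 17.0, 54.9 and 95.4 TPM in TAM replicates 1 to 5, highest in replicate 1, then 5, then 4, as for most of the 36 genes. Ly6a, an endothelial marker that interferon also induces, gave 101.6 TPM of the sum in replicate 1 and 5.02 to 20.1 TPM in the other TAM libraries. Among the other 7 endothelial markers the highest TAM library was replicate 5 for 6 and replicate 2 for Pecam1. All 8 of these markers were lower in TAMs than in microglia, where they summed to 645 to 2010 TPM (limma, median log2 fold change -4.41). Sums of 8 microglia markers were 6720, 3050, 6200, 7680 and 6630 TPM in TAMs and 14100 to 16800 TPM in microglia, and those of 8 markers of plasmacytoid dendritic cells, known for making interferon alpha, were 45.4, 35.2, 43.4, 46.0 and 53.3 TPM and 70.5 to 118 TPM. Sums of 8 neuron and granule lineage markers were 15.7, 7.71, 14.7, 18.6 and 61.8 TPM. In these 3 sums too, TAM replicates 1, 4 and 5 were above replicates 2 and 3. Most of the plasmacytoid dendritic cell sum was Tcf4, at 33.5, 23.6, 30.7, 31.6 and 42.2 TPM in TAM replicates 1 to 5. Cox6a2, the next highest of these markers in TAMs, had another order, at 5.50, 8.63, 8.51, 9.88 and 6.62 TPM. Sums of 8 neutrophil markers (322, 637, 364, 365 and 238 TPM), monocyte markers (240, 178, 94.9, 147 and 95.9 TPM), astrocyte markers (24.4, 14.7, 46.5, 76.7 and 40.5 TPM) and T and NK cell markers (3.37, 5.93, 2.20, 2.24 and 4.48 TPM) had other orders. In microglia these 4 sums were 412 to 463, 57.7 to 183, 103 to 651 and 2.25 to 8.60 TPM. Of 6 tested neutrophil markers 3 were higher and 1 lower in TAMs on TPM (limma, adjusted p under 0.05). The 3 were S100a8, S100a9 and Retnlg, which rose on both scales (log2 fold changes of 2.85, 2.73 and 3.18 on TPM) and were highest in TAM replicate 2, while Csf3r was lower on TPM alone. The defining neutrophil gene Ly6g was at 0.541 and 0.795 TPM in TAM replicates 2 and 4 and was listed at 0 in the other 6 libraries. On TPM 3 of 7 tested monocyte markers were higher and 1 lower, 4 of 7 neuron and granule lineage markers were higher and 1 lower, and 1 of 8 microglia markers was higher and 6 lower. None of the astrocyte, plasmacytoid dendritic cell and T and NK cell markers was higher, and 6 of 8, 2 of 4 and 1 of 3 tested were lower. The counts of these lists stand beside 8.22% higher and 56.4% lower over all tested genes on TPM. On rescaled TPM 25.2% of all tested genes were higher and 24.1% lower. There 6 astrocyte, 2 plasmacytoid dendritic cell and 0 T and NK cell markers were lower, and none higher. Rescaled, 4 monocyte markers were higher and 1 lower, 5 neuron and granule lineage markers higher and 1 lower, and 1 microglia marker higher and 5 lower. The part of these cells in the interferon response genes was not tested.

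**Figure D3:**
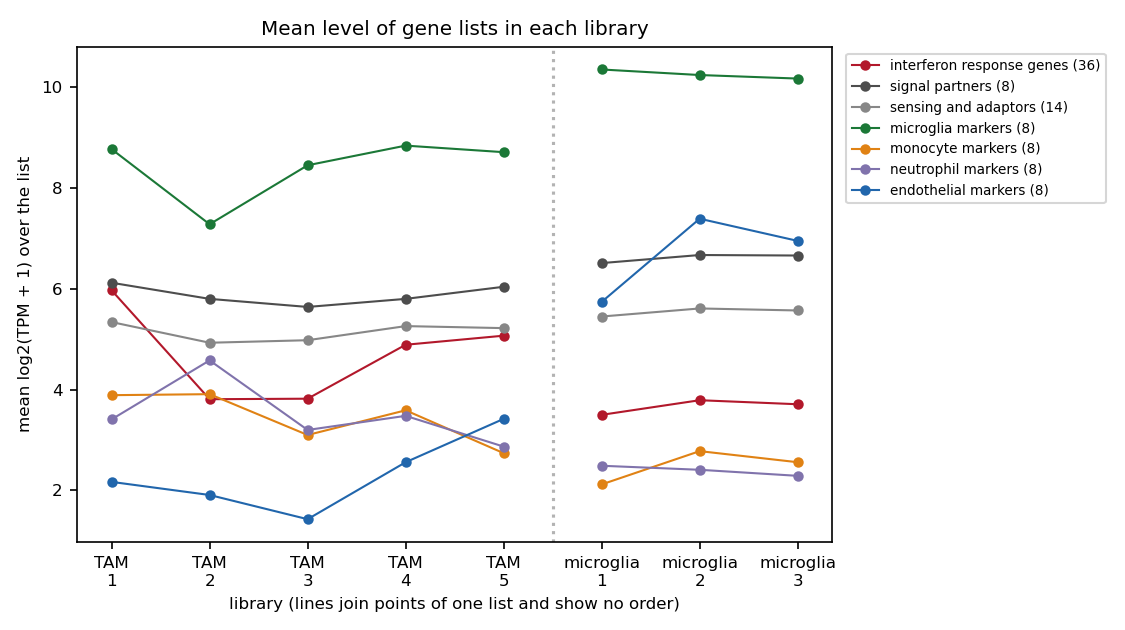
Mean log2(TPM + 1) of 7 gene lists in each of the 8 libraries, TAMs left of the dotted line and microglia right of it. The mean of the 36 interferon response genes was 5.97, 3.81, 3.82, 4.89 and 5.07 in TAM replicates 1 to 5 and 3.50 to 3.79 in microglia, while that of endothelial markers was 1.43 to 3.42 in TAMs and 5.74 to 7.39 in microglia.

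The promoters of 26 of the 36 genes were found in RefSeq's promoter sequences (build GRCm38.p6, the assembly also called mm10). No entry matched Mx1, Mx2, Parp9, Parp14, Zbp1, Ifi204, Oas2, Usp18, Rtp4 and Ifi27l2a. The core of the interferon-stimulated response element was searched as GAAANNGAAA on both strands (TTTCNNTTTC on the other strand), from 250 bases before to 50 after the transcription start. It was present in 12 of the 26 genes, counting a gene with any matching promoter, and in 3.99% of 27025 genes. By promoter it was in 13 of 31, and in 3.44% of all 32851. Among the 11 genes that rose on both scales 4 of 7 with an entry held it, and among the others 8 of 19. Of the genes with the element upstream of the start, Stat2 (bases -222 to -213) and Trim30a (bases -36 to -27) are not shown. The stretches below carry it upstream of the other such genes, whose values follow. They are written 5′ to 3′ on the gene's strand, with the matches in capitals, which overlap in Isg15, Bst2 and Oas1a.
Isg15: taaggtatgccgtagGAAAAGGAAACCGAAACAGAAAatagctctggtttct
Bst2: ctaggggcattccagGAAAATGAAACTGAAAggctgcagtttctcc
Oas1a: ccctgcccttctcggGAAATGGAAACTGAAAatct
Oas3: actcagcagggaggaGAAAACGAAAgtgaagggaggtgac
Rsad2: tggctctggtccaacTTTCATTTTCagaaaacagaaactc
Ifit1: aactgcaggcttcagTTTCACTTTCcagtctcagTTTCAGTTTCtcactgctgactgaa
Ifit3: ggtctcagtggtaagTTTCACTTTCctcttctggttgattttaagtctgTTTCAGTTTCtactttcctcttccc
These are chr4:156200860-156200911 (minus strand) for Isg15, chr8:71537572-71537617 (minus) for Bst2, chr5:120907526-120907560 (minus) for Oas1a and chr5:120777710-120777749 (minus) for Oas3. Rsad2 is at chr12:26456548-26456587 (minus), Ifit1 at chr19:34640770-34640828 (plus) and Ifit3 at chr19:34583358-34583431 (plus). The stretch of Isg15 holds 3 overlapping matches, those of Bst2 and Oas1a hold 2, those of Ifit1 and Ifit3 hold 2 apart, and those of Oas3 and Rsad2 hold 1. No match lay in the windows of Ifnar1, Ifnar2, Irf9, Irf7, Ifit2, Oasl1, Oasl2, Slfn2, Cmpk2, Herc6, Isg20, Xaf1, Ifi35 and Ifi44. A match of letters is a description and does not show that the complex binds there.

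**Figure D4:**
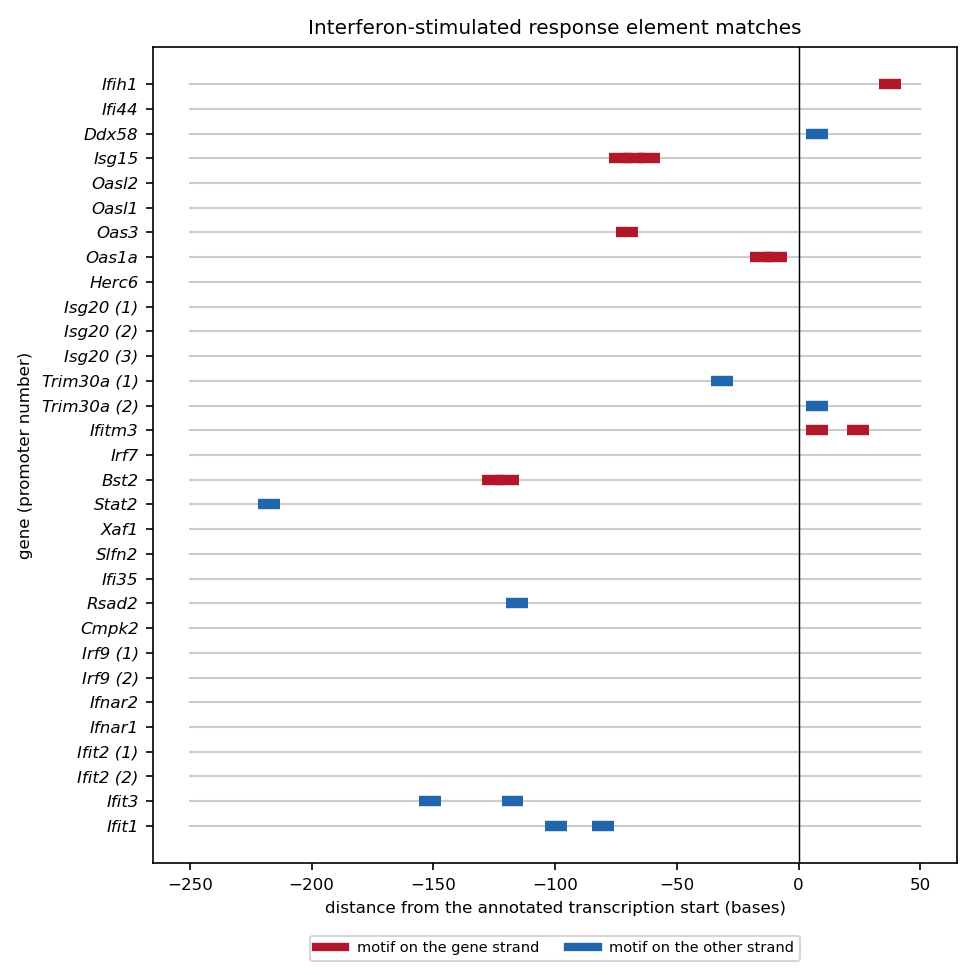
Position of each match of the response element core in the 31 promoters of 26 genes, as distance in bases from the annotated start, with matches on the gene's strand in red and on the other strand in blue. Matches stand in 13 promoters, among them those of Isg15, Bst2, Oas1a, Oas3, Rsad2, Ifit1 and Ifit3 upstream of the start.

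Interferon genes themselves were barely listed. Of 18 type I interferon genes looked for, 14 were in the table, 8 of these were listed at 0 in all 8 libraries, and 1, Ifnb1, was high enough to be tested. Ifnb1, which encodes interferon beta, was at 4.18, 1.18, 1.41, 4.03 and 1.80 TPM in TAM replicates 1 to 5 and at 3.15, 0.568 and 0.564 TPM in microglia. The groups overlapped, with a log2 fold change of 0.60 (limma, adjusted p = 0.250). The gene of interferon gamma, Ifng, which acts through another receptor, was at 0.0561 to 0.244 TPM in TAMs and at 0 to 0.110 TPM in microglia, below the filter.

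The receptor chains stayed within a narrow range of levels. Ifnar1 (chromosome 16, 91485238 to 91507441 on mm10) was at 41.9, 56.9, 47.9, 46.3 and 56.1 TPM in TAM replicates 1 to 5 and at 47.9, 65.8 and 67.8 TPM in microglia. The groups overlapped, and TAM replicate 1, highest in nearly all the other genes, was the lowest here. The log2 fold change came to -0.27 (SE 0.15) on TPM (limma, adjusted p = 0.148) and to 0.46 after rescaling (adjusted p = 0.00777), so that its direction turned with the scale. It was called lower on TPM without microglia replicate 1 (-0.43, limma adjusted p = 0.0348) and not called on rescaled TPM without microglia replicate 2 (adjusted p = 0.0535).

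Ifnar2, the chain that binds the ligand more tightly, also on chromosome 16 (91372783 to 91405589), was at 145, 141, 155, 170.3 and 131 TPM in TAMs and at 143, 136 and 134 TPM in microglia. The highest TAM library stood 1.30 times above the lowest, and the groups overlapped. Its log2 fold change came to 0.10 (SE 0.10) on TPM (limma, adjusted p = 0.382) and to 0.85 after rescaling (adjusted p = 0.00872).

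The partners of the signaling complex differed more among TAM libraries than between group means. Stat2 was at 37.0, 12.9, 13.1, 20.6 and 32.1 TPM in TAM replicates 1 to 5 and at 15.03, 23.8 and 21.9 TPM in microglia. TAM replicates 1 and 5 were above every microglia library and replicates 2 and 3 below, and the log2 fold change was 0.09 (limma, adjusted p = 0.847; 0.80 and adjusted p = 0.0900 rescaled, called there without TAM replicate 2 at 0.0450). Irf9 was at 46.6, 21.6, 21.8, 33.2 and 37.1 TPM in TAMs and at 34.7, 42.4 and 36.7 TPM in microglia. TAM replicate 1 alone was above the microglia range, and the log2 fold change was -0.29 on TPM and 0.43 on rescaled TPM, neither of them called (limma, adjusted p = 0.334 and 0.210).

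Irf7 (chromosome 7, 141262706 to 141266481), the factor that drives interferon alpha genes and is itself induced by interferon, had a wide range. It was at 230, 17.1, 16.7, 63.7 and 80.6 TPM in TAM replicates 1 to 5 and at 11.0, 15.7 and 15.4 TPM in microglia. TAM and microglia values did not overlap, yet replicates 2 and 3 were only just above the microglia. On log2 its fold change of 1.81 with an SE of 0.80 did not pass on TPM (limma, adjusted p = 0.0738). It passed without TAM replicate 2 (2.19, adjusted p = 0.0329 by limma) or 3 (2.20, adjusted p = 0.0349). On rescaled TPM it passed at 2.52 (adjusted p = 0.0339), but not without TAM replicate 4 or 5, or whichever 1 microglia library was left out (adjusted p = 0.0600 to 0.0996).

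Of the 4 genes for nucleic acid sensors, Zbp1 and Ifi204 rose on both scales, Ifih1 on rescaled TPM and Ddx58 on neither. Zbp1 (chromosome 2, 173206612 to 173218923), which encodes a sensor of Z-form nucleic acids that can start cell death, was at 99.8, 14.9, 15.6, 40.7 and 53.1 TPM in TAMs and at 3.69, 3.67 and 3.58 TPM in microglia. Every TAM library was above the microglia, the lowest by a ratio of 4.09 to the microglia mean. The mean was 44.8 ± 34.8 TPM (SD, n = 5) in the TAM libraries against 3.65 ± 0.0592 TPM (SD, n = 3) in microglia, with a log2 fold change of 2.95 and an SE of 0.58 (limma, adjusted p = 0.00279). Ifi204 (chromosome 1, 173747293 to 173766943), of a family of DNA-binding interferon-induced proteins, was at 119, 12.7, 17.7, 22.1 and 45.5 TPM in TAMs and at 4.97, 3.97 and 3.12 TPM in microglia. No TAM library fell in the microglia range, and the log2 fold change came to 2.68 (SE 0.64; limma, adjusted p = 0.00672).

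The sensors of viral RNA in the cytosol changed less. Ifih1, which encodes MDA5, was at 7.24 to 28.9 TPM in TAMs and 8.49 to 12.1 TPM in microglia, with a log2 fold change of 0.54 (limma, adjusted p = 0.224) and 1.22 rescaled (adjusted p = 0.0288). The rescaled call was lost without TAM replicate 4, or whichever 1 microglia library was left out (adjusted p = 0.0534 to 0.111). Ddx58, which encodes RIG-I, was at 7.24 to 27.1 TPM in TAMs and 15.1 to 25.2 TPM in microglia. Only TAM replicate 1 was above the microglia range, and its log2 fold change of -0.53 on TPM (limma, adjusted p = 0.221) stood at 0.18 rescaled, also uncalled. Without TAM replicate 1 it was called lower on TPM (-0.76, limma adjusted p = 0.0498).

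The IFIT genes, of which Ifit1 encodes a protein that binds viral RNA lacking host cap marks, lie together on chromosome 19. Ifit2 (34550694 to 34576419) was at 79.0, 5.91, 12.8, 38.9 and 41.0 TPM in TAM replicates 1 to 5 and at 3.60, 4.86 and 4.66 TPM in microglia. The groups did not overlap, although replicate 2 was near the microglia, and Ifit2 rose by a log2 of 2.31 with an SE of 0.72 (limma, adjusted p = 0.0210). Without any 1 microglia library that call was lost on TPM (adjusted p = 0.0570 to 0.0578) and held on rescaled TPM. Ifit3 was at 141, 9.39, 15.4, 47.3 and 68.9 TPM in TAMs and at 8.33, 8.28 and 10.6 TPM in microglia, so that TAM replicate 2 lay inside the microglia range. The log2 fold change of 1.94 missed the threshold on TPM (limma, adjusted p = 0.0552) and passed it rescaled (2.63, adjusted p = 0.0266). It passed on TPM without TAM replicate 2 or 3 (adjusted p = 0.0127 and 0.0390) and failed rescaled without TAM replicate 4 or 5, or whichever 1 microglia library was left out (adjusted p = 0.0501 to 0.0949). Ifit1 was lower in level, at 2.21 to 19.3 TPM in TAMs and 2.06 to 3.66 TPM in microglia, with a log2 fold change of 0.77 (limma, adjusted p = 0.236). Rescaled it was uncalled (1.37, adjusted p = 0.0789) but called without TAM replicate 1 or 3 (adjusted p = 0.0393 and 0.0402).

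Of the OAS genes, all on chromosome 5, Oas1a, Oas3 and Oasl1 rose on both scales, and Oas2 and Oasl2 passed on neither. OAS1, OAS2 and OAS3 enzymes make 2′-5′-linked oligoadenylates that activate the RNA-cutting enzyme RNase L. Oas1a (120896256 to 120907521) was at 91.6, 14.9, 17.2, 45.4 and 39.5 TPM in TAMs and at 5.01, 5.48 and 5.12 TPM in microglia. TAM and microglia values did not overlap, and its log2 fold change came to 2.48 (SE 0.53; limma, adjusted p = 0.00408). Oas3 (120753098 to 120777661) was the lowest of the 36 in microglia, at 0.242, 0.140 and 0.231 TPM, and stood at 18.0, 0.767, 1.22, 3.99 and 4.80 TPM in TAMs. Every TAM library was above the microglia, and TAM replicate 1 alone was 88.4 times the microglia mean. On log2(TPM + 1), which understates changes at such low levels, Oas3 rose by 1.95 with an SE of 0.69 (limma, adjusted p = 0.0356). That call was lost without TAM replicate 4 or 5, or whichever 1 microglia library was left out (adjusted p = 0.0625 to 0.0979, and 0.0607 to 0.112 rescaled), and with no filter on low values or a pseudocount of 10 (adjusted p = 0.0594 and 0.124).

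Oasl1, a relative without the enzyme activity that restrains the translation of Irf7, was at 38.5, 10.2, 2.94, 10.7 and 12.2 TPM in TAMs and at 1.65, 1.59 and 2.22 TPM in microglia. Here replicate 3 was the low TAM library and replicate 2 stood with replicates 4 and 5. It rose by 2.12 with an SE of 0.61 (limma, adjusted p = 0.0148), uncalled on TPM without microglia replicate 2 (adjusted p = 0.0527). Oas2 was at 4.41 to 41.7 TPM in TAMs and 5.36 to 7.53 TPM in microglia (log2 fold change 0.78, limma adjusted p = 0.293; 1.43 and 0.107 rescaled). Oasl2 was at 8.69 to 78.4 TPM in TAMs and 8.73 to 17.4 TPM in microglia (log2 fold change 0.86, limma adjusted p = 0.296; 1.56 and 0.0952 rescaled). For both, TAM replicates 1, 4 and 5 were above the microglia range and replicates 2 and 3 were not. Rescaled, Oasl2 was called without TAM replicate 2 or 3 (limma, adjusted p = 0.0498 and 0.0417).

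Rsad2 and Cmpk2 are neighbors on chromosome 12 and encode enzymes of 1 antiviral pathway, viperin and the kinase that feeds it with CTP. Rsad2 (26442753 to 26456452) was at 64.9, 12.3, 12.0, 23.2 and 33.3 TPM in TAM replicates 1 to 5 and at 2.65, 3.38 and 3.82 TPM in microglia. Every TAM library was above the microglia, and even replicates 2 and 3 stood 3.74 and 3.66 times above the microglia mean. It rose by a log2 of 2.54 with an SE of 0.51 (limma, adjusted p = 0.00303). Cmpk2 was at 2.18 to 22.3 TPM in TAMs and 1.95 to 3.80 TPM in microglia. Replicates 2 and 3 lay inside the microglia range, and its log2 fold change of 1.04 was not called (limma, adjusted p = 0.169; 1.63 and adjusted p = 0.0668 rescaled, called there without TAM replicate 2 or 3 at 0.0255 and 0.0476).

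Mx1 and Mx2 encode dynamin-like antiviral GTPases, and many laboratory mouse strains carry defective copies. Mx1 was at 50.4, 6.57, 6.80, 20.2 and 33.3 TPM in TAMs and at 4.14, 3.96 and 4.01 TPM in microglia. No TAM library fell in the microglia range, and Mx1 rose by 1.88 with an SE of 0.63 (limma, adjusted p = 0.0287). That call was lost on TPM without TAM replicate 4 or 5, or whichever 1 microglia library was left out (adjusted p = 0.0543 to 0.0804), rescaled without microglia replicate 2 or 3 (0.0556 and 0.0539), and with a pseudocount of 10 (0.0512). Mx2, which the deposited table lists as a polymorphic pseudogene, was at 1.94 to 14.6 TPM in TAMs and 5.17 to 6.39 TPM in microglia. Its log2 fold change was -0.17 on TPM and 0.45 rescaled, with no call (limma, adjusted p = 0.777 and 0.512).

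Slfn2, a schlafen gene needed for quiescence of immune cells, did not follow the order of the other genes. It was at 96.1, 80.7, 39.0, 76.9 and 72.7 TPM in TAMs and at 36.9, 26.9 and 29.3 TPM in microglia, so that replicate 2 was the second highest TAM library and replicate 3 the lowest. The groups did not overlap and it rose by 1.16 with an SE of 0.27 (limma, adjusted p = 0.00567). Isg20, an RNA exonuclease gene, was at 4.04 to 23.7 TPM in TAMs and 3.94 to 6.00 TPM in microglia (log2 fold change 0.63, limma adjusted p = 0.268; 1.28 and 0.0707 rescaled). Rescaled, Isg20 was called without TAM replicate 1 or 2 (limma, adjusted p = 0.0379 and 0.0388).

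Bst2 (chromosome 8, 71534264 to 71537437) encodes tetherin, which holds budding virus particles at the cell surface, and had the smallest error of the 11 genes that rose on TPM. It was at 819, 438, 515, 422 and 736 TPM in TAM replicates 1 to 5 and at 115, 101.5 and 95.7 TPM in microglia. The lowest TAM library was 4.06 times the microglia mean, and the highest TAM library was 1.94 times the lowest. The mean was 586 ± 181 TPM (SD, n = 5) in the TAM libraries against 104 ± 9.68 TPM (SD, n = 3) in microglia, so that Bst2 rose by a log2 of 2.43 ± 0.23 (SE; limma, adjusted p = 0.000134), or by 3.18 rescaled. On TPM, then, Bst2 was above the microglia in all TAM libraries, also in replicates 2 and 3, where the 36 genes stood at a median of 1.04 and 0.903 times their microglia means.

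The other membrane proteins differed from each other. Ifi27l2a, a small hydrophobic protein gene on chromosome 12 (103442167 to 103443680), was at 669, 34.5, 63.6, 276 and 185 TPM in TAMs and at 28.4, 18.2 and 13.0 TPM in microglia. TAM and microglia values did not overlap, replicate 2 being closest to the microglia, and it rose by 2.92 with an SE of 0.87 (limma, adjusted p = 0.0173). Without microglia replicate 2 or 3 the call was lost on TPM (adjusted p = 0.0567 and 0.0655) and rescaled (0.0512 and 0.0582). Ifitm3, whose product blocks viral fusion, was at 66.5 to 334 TPM in TAMs and 115 to 204 TPM in microglia. Replicate 3 was below every microglia library and replicates 1 and 4 above, with a log2 fold change of 0.11 (limma, adjusted p = 0.842). Rescaled, Ifitm3 stood at 0.85 (adjusted p = 0.186) and was called without TAM replicate 3 (1.18, adjusted p = 0.0375).

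**Figure D5:**
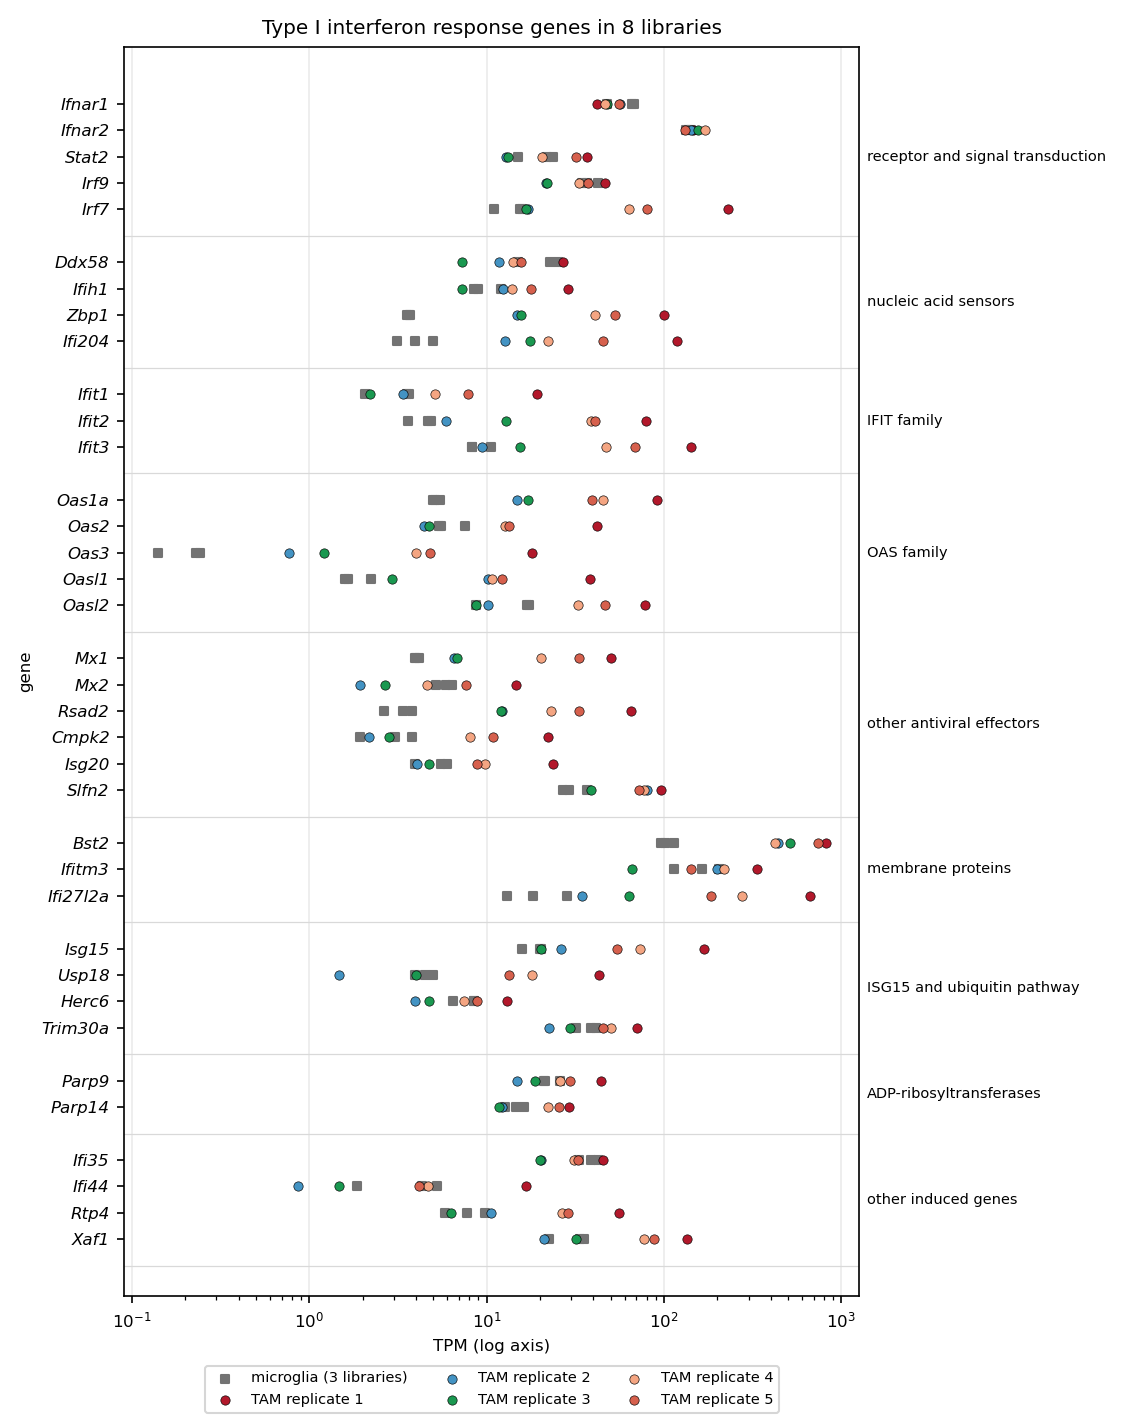
TPM of each of the 36 genes in every library on a log axis, with TAM replicates as colored circles, the 3 microglia libraries as grey squares and genes grouped by role. TAM replicate 1 is the rightmost circle for 34 genes, and the TAM circles lie wholly right of the squares for 13 genes.

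Isg15 encodes a ubiquitin-like protein that is joined to other proteins and also secreted. It was at 169, 26.2, 20.3, 72.9 and 54.3 TPM in TAM replicates 1 to 5 and at 15.9, 20.1 and 20.3 TPM in microglia. The groups touched without overlapping, since TAM replicate 3 was just above the highest microglia library. On log2 its fold change of 1.42 with an SE of 0.61 did not pass on TPM (limma, adjusted p = 0.0676) but did without TAM replicate 2 or 3 (adjusted p = 0.0423 and 0.0262). It passed rescaled (2.14, adjusted p = 0.0255), and not without TAM replicate 4, or whichever 1 microglia library was left out (adjusted p = 0.0537 to 0.0854).

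Usp18, which removes ISG15 and damps the receptor, had the widest range of all 36 among TAMs, the highest library being 29.5 times the lowest. It was at 1.47 to 43.2 TPM in TAMs and 3.95 to 4.97 TPM in microglia, with TAM replicate 2 below the microglia and replicates 1, 4 and 5 above. The log2 fold change of 0.99 did not pass (limma, adjusted p = 0.315; 1.61 and 0.166 rescaled), and on rescaled TPM it passed without TAM replicate 2 (2.16, adjusted p = 0.0359). Herc6, the ligase that joins ISG15 to proteins in mice, was at 3.94 to 13.0 TPM in TAMs and 6.44 to 8.50 TPM in microglia. Its log2 fold change was -0.12 on TPM and 0.53 rescaled, with no call (limma, adjusted p = 0.754 and 0.228). Trim30a was at 22.4 to 70.3 TPM in TAMs and 32.0 to 41.2 TPM in microglia, with a log2 fold change of 0.12 (limma, adjusted p = 0.764). Rescaled it stood at 0.85 (adjusted p = 0.0798) and passed without TAM replicate 2 (adjusted p = 0.0249).

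Parp9 and Parp14, neighboring genes of the ADP-ribosyltransferase family, had narrower ranges. Parp14 was at 11.7 to 29.3 TPM in TAMs and 12.7 to 16.3 TPM in microglia, uncalled on TPM (log2 fold change 0.37, limma adjusted p = 0.324) and called rescaled (1.07, adjusted p = 0.0220). The rescaled call was lost without any 1 microglia library (adjusted p = 0.0625 to 0.0851). Parp9 was at 14.9 to 44.3 TPM in TAMs and 21.1 to 26.1 TPM in microglia, with a log2 fold change of 0.13 (limma, adjusted p = 0.728). Rescaled it stood at 0.84 (adjusted p = 0.0633) and passed without TAM replicate 1 or 2 (adjusted p = 0.0419 and 0.0255).

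Rtp4 and Xaf1 rose on rescaled TPM, while Ifi35 and Ifi44 passed on neither scale. Rtp4 was at 6.30 to 56.1 TPM in TAMs and 5.85 to 9.79 TPM in microglia, with a log2 fold change of 1.27 (limma, adjusted p = 0.0960; 1.95 and 0.0323 rescaled). It was called on TPM without TAM replicate 3 (adjusted p = 0.0224). Xaf1, a gene that promotes cell death, was at 21.2 to 135 TPM in TAMs and 22.5 to 35.5 TPM in microglia, with a log2 fold change of 0.92 (limma, adjusted p = 0.174; 1.65 and 0.0404 rescaled). It was called on TPM without TAM replicate 2 (adjusted p = 0.0353). Both rescaled calls were lost without TAM replicate 4 or 5, or whichever 1 microglia library was left out (adjusted p = 0.0568 to 0.101 for Rtp4 and 0.0717 to 0.119 for Xaf1). Ifi35 was at 20.1 to 45.1 TPM in TAMs and 33.3 to 42.3 TPM in microglia, with 4 of 5 TAM libraries below every microglia library. On log2 its fold change was -0.40 on TPM (limma, adjusted p = 0.204) and 0.33 rescaled, and without TAM replicate 1 it was called lower on TPM (-0.56, adjusted p = 0.0498). Ifi44 was at 0.860 to 16.7 TPM in TAMs and 1.86 to 5.24 TPM in microglia, with a log2 fold change of 0.05 (limma, adjusted p = 0.949; 0.63 and 0.503 rescaled).

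The calls of 6 genes on TPM held when any 1 library was left out, those of Bst2, Rsad2, Zbp1, Ifi204, Oas1a and Slfn2. On rescaled TPM 9 did so, the same 6 with Ifit2, Oasl1 and Ifnar2. Leaving out TAM replicate 1, the library with the highest levels, left the same 11 genes higher on TPM, with Ddx58 and Ifi35 called lower. On rescaled TPM the 20 genes were still called without it, and Ifit1, Isg20 and Parp9 were called higher besides, which gave 23. The shares of all tested genes called in these fits without a library are not given here.

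Genes that act beside the 36 in the pathway were counted by list. These counts stand beside 8.22% higher and 56.4% lower over all tested genes on TPM, and 25.2% and 24.1% on rescaled TPM. Of 8 signal partners 0 were higher and 7 lower on TPM, and 2 were lower on rescaled TPM. The 2 lower on both scales were Irf1, an early interferon-induced factor at 61.3 to 98.9 TPM in TAMs and 196 to 220 TPM in microglia, and Irf5, with log2 fold changes of -1.41 and -1.19 (limma, adjusted p = 0.000317 and 0.000106). Jak1, a kinase of the receptor, fell by 0.89 on TPM (limma, adjusted p = 0.000110) and was uncalled at -0.15 rescaled. Of 14 genes of sensing and adaptors 2 were higher and 8 lower on TPM, and 5 higher and 3 lower rescaled, with the lower shares near those over all tested genes on both scales. Tmem173, which encodes the adaptor STING, was at 38.2 to 61.4 TPM in TAMs and 191 to 217 TPM in microglia and fell by 2.18 (limma, adjusted p = 4.68e-05). Mb21d1, which encodes the DNA sensor cGAS upstream of STING, fell by 1.21 (adjusted p = 0.000801), and both were also lower rescaled. Those that rose on TPM were Ikbke, a kinase that activates IRF3 and IRF7 (log2 fold change 3.46, limma adjusted p = 0.0001), and Dhx58, an interferon-induced relative of RIG-I (1.15, adjusted p = 0.0261). Ikbke was at 29.3 to 72.6 TPM in TAMs, highest in replicate 2, and at 1.97 to 5.08 TPM in microglia.

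Of 13 genes that restrain the response, against the same shares over all tested genes (8.22% and 56.4% on TPM, 25.2% and 24.1% rescaled), 2 were higher and 4 lower on TPM, and 4 higher and 1 lower rescaled. Socs3, which blocks cytokine receptor kinases, fell by 2.26 (limma, adjusted p = 0.000127), and Rnaseh2b, a subunit of the enzyme that removes ribonucleotides from DNA, rose by 0.90 (adjusted p = 0.00718), as did Nlrc3 (1.12, adjusted p = 0.0218). In the interferon gamma pathway 2 of 7 tested genes were higher and 3 lower on TPM, and 5 higher and 2 lower rescaled. Cxcl9, a chemokine induced mainly by interferon gamma, was at 41.3, 2.83, 3.72, 6.92 and 12.5 TPM in TAM replicates 1 to 5 and at 0.771 to 1.42 TPM in microglia. It rose by 2.20 (limma, adjusted p = 0.0243), with replicate 1 again the highest. Ciita, which drives MHC class II genes, rose by 2.00 (adjusted p = 0.00321) and was highest in replicate 2 at 16.6 TPM. Ifngr1, a chain of the interferon gamma receptor, fell by 1.63 (adjusted p = 8.02e-05), and Jak2 was called lower on TPM and higher rescaled (-0.43 and 0.28).

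Reads can be shared with other genes in some cases. Oas1a has a copy, Oas1g, at 97.6% identity over 98.7% of its coding sequence, and Ifit3 a copy, Ifit3b, at 97.8% over 97.4%. Oas1g was at 57.6, 3.29, 5.78, 19.9 and 22.4 TPM in TAMs and at 2.00 to 2.61 TPM in microglia, and rose by 2.19 (limma, adjusted p = 0.0332). Ifit3b was at 1.32 to 23.5 TPM in TAMs and 3.97 to 5.22 TPM in microglia, uncalled (0.41, adjusted p = 0.621). Summing each gene with its copy changed no call. In GENCODE M21 10 of the 36 genes share exonic bases with another gene, 5 of them with a gene on the other strand, where Parp9 and Dtx3l share the most (458 bases), and 5 with a gene on the same strand, where Herc6 and Gm45193 share the most (1269 bases). In the shared bases reads of Herc6, Irf9, Ifnar2, Rtp4 and Parp14 cannot be told apart from those of their partners with any strandedness. Since the strandedness of the libraries is not given, reads of Parp9, Irf7, Ifi35, Usp18 and Oasl1 cannot be told apart from those of their overlapping partners there.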

How the data were processed

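The deposited expression values are TPM, per the file headers, with column sums of 990422 to 997832. The authors' own comparison adds, per the file headers, a mean signal (baseMean), a log2 fold change and a p-value not yet adjusted. Per the submitters' processing notes the tools include DESeq2 and FastQC and the build is mm10. How reads were aligned and quantified, with which annotation and strandedness, is not given in the sources used here. TPM keeps no read depth, so no counting interval is given.

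Genes at 1 TPM or more in at least 3 libraries (15262) were fitted in 1 model of all 8 libraries without covariates (limma 3.58.1 with an intensity trend, R 4.3.3) on log2(TPM + 1). P-values were two-sided and adjusted by Benjamini-Hochberg over all tested genes, and all 36 genes passed the filter. The fit was tested on simulated data. Copies were sought with blastn 2.17.0 against GENCODE M21 transcripts (95% identity, 80% coverage). All 36 deposited positions overlapped the same gene there. Libraries correlated at 0.973 or less across genes, so none held identical values. The members and lists were chosen with earlier results of these data known. All 36 genes are named. Values in every library were to be given for Bst2, Rsad2, Irf7, Ifnar1, Ifnar2, Stat2, Irf9 and each gene called on both scales, and were added for Isg15 and Ifit3 after their values were seen. Of the other lists, Irf1, Ifnb1, Ifng and up to 4 called genes of lowest p were to be named, and some of the latter are given only in counts. A further gene taken by this rule is not reported here. Jak2, Dhx58, Nlrc3 and the relatives were named after their values were seen. Values on rescaled TPM are given beside TPM for each of the 36 genes. Those of genes outside the 36 are on TPM unless stated. Groups and replicate numbers came from the sample titles.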

Additional observations from a re-analysis of the deposited data

Results flagged for a closer look

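In 4 of the 36 genes the TPM of TAM replicate 1 stood apart from the other 4 TAM libraries, with a gap to the nearest of them above 0.71 of the whole range. Oas2 was at 41.7 TPM there against 13.4 TPM in the next library, Oas3 at 18.0 against 4.80 TPM, Oasl1 at 38.5 against 12.2 TPM and Ifi44 at 16.7 against 4.66 TPM. For normally distributed values chance flags about 1 in 20 such groups. TPM values need not be so distributed, and the share of all tested genes flagged by this rule is not given here. The genes share their libraries, so the 4 are not independent.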

How the results depend on the processing

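The count of genes higher in TAMs was 11 on TPM and moved to 20 on rescaled TPM, to 30 in the authors' deposited comparison and to 7 with a replicate block (from 20 to 11 with the block on rescaled TPM, a fit chosen after seeing the data). With the block Ifit2, Oas3, Oasl1 and Mx1 lost their calls on TPM (limma, adjusted p = 0.0672 to 0.108). On rescaled TPM Ifit2, Ifit3, Irf7, Ifih1, Oas3, Isg15, Parp14, Rtp4 and Xaf1 lost theirs (limma, adjusted p = 0.0614 to 0.15). The labels tie same-numbered libraries by the number alone, and whether they shared a batch is not stated. The deviations of same-numbered libraries correlated at 0.15, 0.014 and -0.051, and 4 of 6 libraries correlated best with their own number. Leaving out 1 library gave 6 to 15 genes higher and 0 to 2 lower on TPM, and 9 to 27 higher on rescaled TPM. The smallest counts came without microglia replicate 2, and fewer samples remain in such fits. Without Mir6236, Mir6240 and Gm15662, with other pseudocounts, with no filter, with copies summed and with TAM replicates 1 and 2 both left out (the last 2 chosen after seeing the data), 9 to 13 genes were higher and 0 lower on TPM. For the fits with a block, without a library and in this last group, the shares of all tested genes called are not given here. Whether the counts moved with those shares was not tested.

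Directions turned for genes that were uncalled on TPM, and the cause was not tested. On rescaled TPM the log2 fold changes were 0.46 for Ifnar1, 0.43 for Irf9, 0.18 for Ddx58, 0.45 for Mx2, 0.53 for Herc6 and 0.33 for Ifi35. In the authors' deposited table they were 0.56 for Ifnar1, 0.59 for Irf9, 0.41 for Ddx58, 0.91 for Mx2, 0.80 for Herc6 and 0.50 for Ifi35. Herc6 stood at 0.05 without the 3 dominant features, and Ifi44 at -0.04 with a pseudocount of 0.1. With the replicate block Stat2 was at -0.09, Trim30a at -0.04 and Ifi44 at -0.08. When 1 library was left out, ranges crossed 0 for Herc6 (-0.32 to 0.05), Ifi44 (-0.42 to 0.39), Ifitm3 (-0.13 to 0.44), Mx2 (-0.51 to 0.09), Parp9 (-0.07 to 0.30), Stat2 (-0.11 to 0.25) and Trim30a (-0.08 to 0.33), and for Ddx58 on rescaled TPM (-0.10 to 0.39). Without TAM replicates 1 and 2, Ifitm3 was at -0.30 and Ifi44 at -0.13, and Ddx58 at -0.13 on rescaled TPM. Depth is unknown, so the precision of low values such as those of Oas3 in microglia cannot be given.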

Other observations

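Relatives of the 36 genes, chosen after their values were seen, did not all share their order among TAM libraries. The order began with replicate 1, then 5, then 4 for Oas1g, Ifit3b, Ifi203, Ifi205, Slfn5 and Slfn8. It did not for Ifi202b, Ifitm2, Ifi27, Trim30d, Slfn1 and Slfn4. Ifi202b, which lies with Ifi204 in a family known for differences between mouse strains, was at 0.154, 96.0, 11.6, 43.0 and 60.2 TPM in TAM replicates 1 to 5 and at 15.7 to 17.3 TPM in microglia. TAM replicate 1, the highest for Ifi204, was thus close to 0 for Ifi202b alone among the 8 libraries. All libraries are labelled with the same strain. Which of these levels is usual for that strain, and whether the mice differed at this locus, was not tested. Ifitm2, a neighbor of Ifitm3, was at 496 TPM in TAM replicate 2 and at 97.1 to 166 TPM in the other TAM libraries.

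The schlafen genes split. Slfn4 was at 30.6, 3.10, 8.85, 6.81 and 3.43 TPM in TAMs and at 0.181 to 0.266 TPM in microglia, and rose by a log2 of 2.79 (limma, adjusted p = 0.00451). Slfn1 also rose (1.88, limma adjusted p = 0.00617). Slfn8 was at 24.7, 1.22, 6.11, 7.30 and 19.6 TPM in TAMs and at 20.4 to 24.5 TPM in microglia, uncalled (-1.29, limma adjusted p = 0.139).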
